A study of Mus musculus with 6 samples.

Results

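RIKEN-named genes are mouse genes that still carry the identifier of a full-length cDNA clone, ending in Rik, in place of a functional name. The deposited tables listed 185 of them among 1653 genes, and 116 had a summed count of at least 12 reads over the 6 libraries; these 116 are described here. They were selected on these raw counts, so the counts are given as a description. At the threshold, 4 genes with a sum of 11 stayed out and 4 with a sum of 12 came in. The 69 genes below it included 5 with 0 reads in every library.

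The libraries were bulk RNA-seq of mouse embryonic stem cells of strain C57BL/6, self-renewing cells of the early embryo. Both genotypes were cultured with serum and leukemia inhibitory factor on a layer of mouse embryonic fibroblasts inactivated with mitomycin-C. Wild type and Yaf2KO, a Yaf2 knockout made with Cas9, had 3 libraries each. Neither clone numbers nor separate cultures are stated, and Yaf2 itself is not among the listed genes, so the knockout was not checked here. YAF2 belongs to variant Polycomb complexes that place ubiquitin on histone H2A and keep developmental genes silent. Many RIKEN-named genes are long non-coding RNAs, often transcribed antisense to, or divergently from, a coding gene. Others encode proteins best known from testis, where the cDNA was first cloned.

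By reference annotation the 116 genes comprised 37 lincRNAs (intergenic long non-coding RNAs), 32 protein-coding genes, 17 antisense RNAs, 13 processed transcripts, 8 genes whose existence awaits experimental support (TEC), 4 bidirectional-promoter lncRNAs and 3 of other types. The remaining 2, D930048G16Rik and C030048H21Rik, were not in that annotation. By its coordinates D930048G16Rik lay within the coding gene Srrm2 (overlap 3710 bp, same strand). C030048H21Rik lay within Ccdc187 (5798 bp, same strand), which is also the RefSeq name of 4932418E24Rik. In the deposited coordinates C030048H21Rik and 4932418E24Rik were 14092 bp apart. RefSeq carries 79 under the same symbol and 10 under another, among them 1700061G19Rik as Acsbg3, of a family of acyl-CoA synthetases.

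All listed genes together held 56367 to 72975 reads in the wild-type libraries and 143682 to 451075 in Yaf2KO, and these sums are not library depths, which were not used here. Of the 6 listed embryonic stem cell markers (of 14 looked for) and the 5 listed feeder fibroblast markers (of 18), none was at 0 in all libraries. Stem cell markers took 5.86 to 6.17% of the listed reads in wild type against 3.68 to 9.21% in Yaf2KO. Feeder markers took 1.48 to 2.51% in wild type, but 0.694, 4.32 and 2.36% in Yaf2KO 1, 2 and 3. Tagln held most feeder marker reads in every library, such as 1200 of 1648 in wild type 1 and 2493 of 3129 in Yaf2KO 1. The Yaf2KO libraries thus differed from one another in both lists. In bulk RNA, fewer cells of a type and less RNA per cell cannot be told apart.

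Nearly all RIKEN-named genes had more raw reads in Yaf2KO: 114 of 116, beside 1054 of the 1072 listed genes with the same minimum sum. Their part of the listed reads did not follow that increase. It was 1.40% (exact 95% binomial interval 1.31 to 1.49), 1.30% (1.20 to 1.39) and 1.55% (1.46 to 1.64) in wild type 1 to 3. Yaf2KO 1 to 3 gave 1.50% (1.46 to 1.53), 1.15% (1.11 to 1.19) and 1.09% (1.03 to 1.14). The intervals cover counting error only. Yaf2KO 1 lay inside the wild-type range and Yaf2KO 2 and 3 below it. The means were 1.41% ± 0.127 (SD, n = 3) and 1.24% ± 0.222 (SD, n = 3), which a two-sided exact permutation test did not separate (p = 0.3, where 0.1 is the smallest possible).

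Raw counts of the 3 Yaf2KO libraries all lay above the 3 wild-type counts for 27 of the 116 genes (23.3%), while the background over the 1072 listed genes was 39.2%. Predicted genes with Gm names reached 23.2% and all other names 49.4%. The RIKEN-named genes had few reads, with a median sum of 28.5 beside 97.5 for the other names and 23.0 for the Gm genes. In 68 of the 116 the minimum sum was met through Yaf2KO alone, with fewer than 12 wild-type reads, so a higher raw count in Yaf2KO was built into those. No RIKEN-named gene had all Yaf2KO counts below wild type, where the background was also 0 of 1072.

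After scaling to the listed genes (TMM factors), 3 RIKEN-named genes had separate groups with Yaf2KO higher, against a background of 5.41%, and 4 had separate groups with Yaf2KO lower, against 2.52%. The higher ones, named after their values were seen, were E530001K10Rik with 0, 1 and 3 reads in wild type against 48, 11 and 14 in Yaf2KO, D930048G16Rik with 2, 1 and 1 against 21, 12 and 9, and C030048H21Rik with 1, 1 and 1 against 14, 25 and 3. With wild-type sums of 4, 4 and 3, all of these met the minimum sum only through Yaf2KO, where they are high. D930048G16Rik and C030048H21Rik also lie within the coding genes Srrm2 and Ccdc187, on the same strand. Whether their reads come from those coding genes was not tested. The lower ones were 1700030C10Rik, 2210412B16Rik, 0610009L18Rik and 4930556N13Rik. Among them, 2210412B16Rik lies within the coding gene Tpst1 on the same strand (overlap 498 bp). 4930556N13Rik overlaps the coding gene Akap1 on the opposite strand (12983 bp). Whether reads of these genes come from Tpst1 or Akap1 was not tested either. With 28 and 29 reads in all, 0610009L18Rik and 4930556N13Rik rest on few reads.

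Only 19 of the 116 genes (16.4%) had enough reads in enough libraries for a test, beside 35.1% of the 1072. In edgeR's quasi-likelihood test with Benjamini-Hochberg adjustment over 376 genes, 0 of the 19 were called at an adjusted p of 0.05, and the background was 0.798%. At an unadjusted p under 0.05 there was 1 of 19, 2610035F20Rik, beside 5.32% of all tested genes. With DESeq2 size factors or upper-quartile factors in place of TMM, edgeR had 0 of the 19 at an unadjusted p under 0.05. The backgrounds were 4.26 and 4.52%. The DESeq2 Wald test called 0 of the 19 (background 2.66%) and had 1 at an unadjusted p under 0.05 (background 5.05%). The median log2 fold change of the 19 was -0.24, against 0.06 over all tested genes, and 7 of the 19 values were above 0. They ranged from -0.77 (9330185C12Rik) to 1.21 (2610035F20Rik). All of these values are relative to the listed genes: with every library taken as equally deep, the median over all genes tested was 2.12, that of the RIKEN-named genes 1.91, and 14 of 25 RIKEN-named genes (56%) were called, against a background of 75.7%. Without wild type 3, which also changes the genes that can be tested, the median was 0.10.

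**Figure D1:**
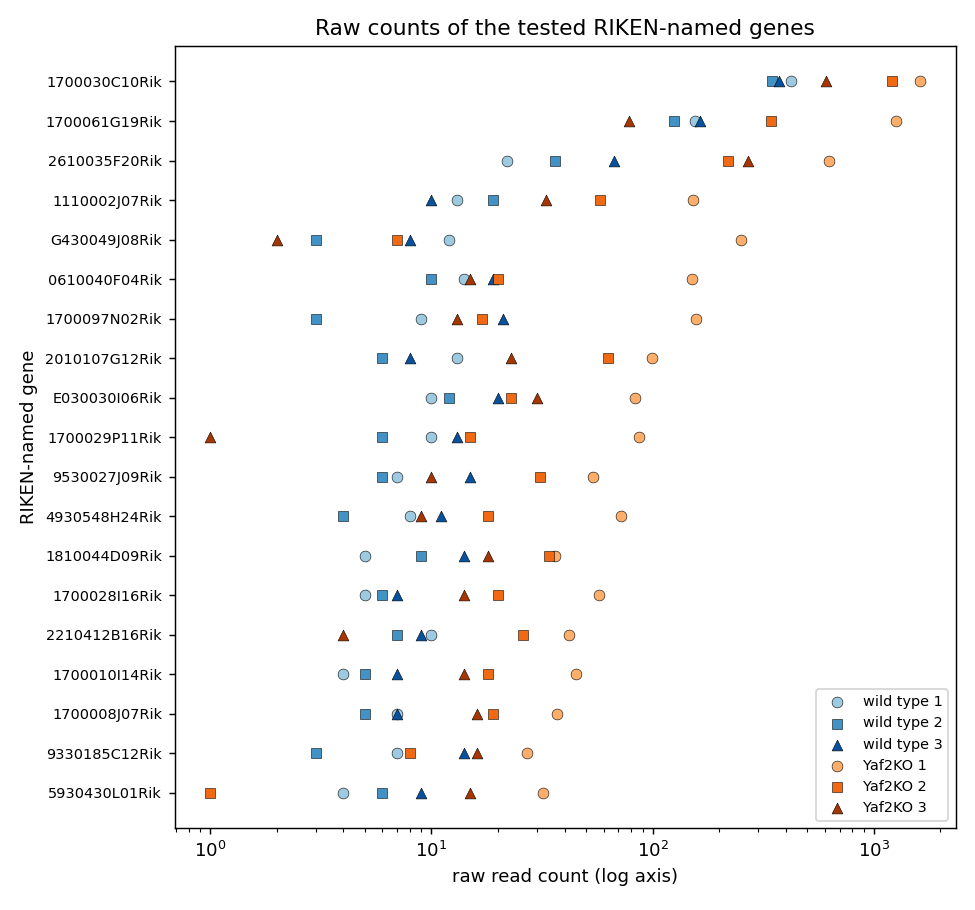
Raw read counts (log axis) of the 19 tested RIKEN-named genes in each library, blue for wild type and orange for Yaf2KO, ordered by summed count. Yaf2KO 1 is the highest library in all 19 genes, and Yaf2KO 3 falls among or below the wild-type counts in genes such as 1700061G19Rik and 1700029P11Rik.

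**Figure D2:**
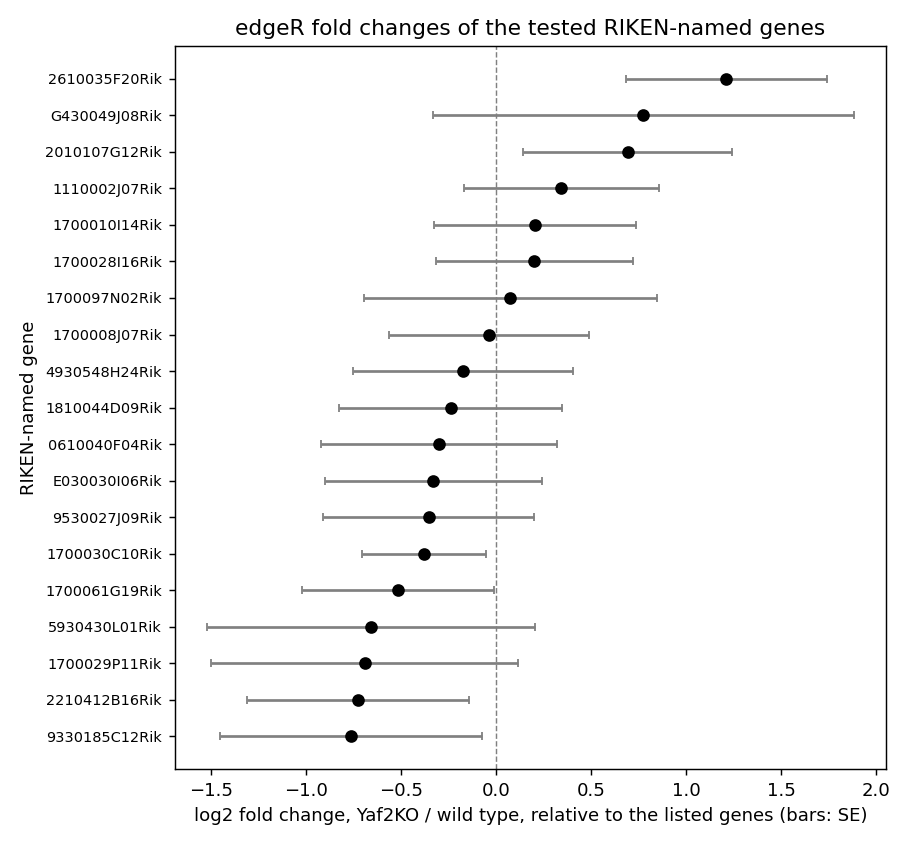
Log2 fold change of Yaf2KO over wild type from edgeR for the 19 tested RIKEN-named genes, with bars for 1 SE, relative to the listed genes. None had an adjusted p under 0.05, and 12 of the 19 points lie below 0.

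The most abundant RIKEN-named RNA was 1700030C10Rik, a processed transcript on chromosome 12 (mm10, 20804381 to 20815779, minus strand). It had 420, 347 and 374 reads in wild type against 1616, 1206 and 608 in Yaf2KO. All raw Yaf2KO counts were higher, yet in scaled CPM (counts per TMM-scaled sum of the listed genes) the order was the opposite, with 5850.1 ± 469 in wild type against 4501 ± 988 in Yaf2KO (SD, n = 3 each). The groups did not overlap on that scale, and the log2 fold change was -0.38 (SE 0.33, edgeR adjusted p = 0.99). Without this gene the RIKEN-named genes held 0.759, 0.680 and 1.04% of the listed reads in wild type against 1.14, 0.667 and 0.663% in Yaf2KO.

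Next came 1700061G19Rik (RefSeq Acsbg3), a coding gene on chromosome 17 (56875477 to 56888904, plus strand). Its counts were 156, 125 and 164 in wild type against 1253, 344 and 78 in Yaf2KO. The wild-type libraries were close together, whereas Yaf2KO spanned values above and below them. Its log2 fold change was -0.52 (SE 0.51, edgeR adjusted p = 0.99).

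D630039A03Rik, a coding gene on chromosome 4 (57908483 to 57916297, minus strand), had 2, 1 and 6 reads in wild type against 305, 31 and 4 in Yaf2KO. One library held 87.4% of its reads, and Yaf2KO 3 lay within the wild-type range. Too few libraries reached the minimum count of the filter. When every gene was tested, it was the single RIKEN-named gene of 116 called (log2 fold change 2.98, edgeR adjusted p = 0.0274), or 0.862%, near the background of 0.916% in that fit. With 9 wild-type reads it met the minimum sum only through Yaf2KO, so the counts that give this difference also chose the gene.

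The promoters of these genes differed in CpG content, the dinucleotide that is dense in CpG islands, where variant Polycomb complexes are known to bind. RefSeq windows (GRCm38.p6) of 250 bases before to 50 after the start were found for 64 of the 116. They are shown for the 2 most abundant genes, for D630039A03Rik and for 0610040F04Rik, whose window lies inside its neighbour Bhlhe40. Capitals mark CG. The windows are chr12:20815730-20816029 (minus strand, 29 CG), chr17:56875234-56875533 (plus, 4 CG), chr4:57916215-57916514 (minus, 6 CG) and chr6:108660885-108661184 (minus, 13 CG).
1700030C10Rik: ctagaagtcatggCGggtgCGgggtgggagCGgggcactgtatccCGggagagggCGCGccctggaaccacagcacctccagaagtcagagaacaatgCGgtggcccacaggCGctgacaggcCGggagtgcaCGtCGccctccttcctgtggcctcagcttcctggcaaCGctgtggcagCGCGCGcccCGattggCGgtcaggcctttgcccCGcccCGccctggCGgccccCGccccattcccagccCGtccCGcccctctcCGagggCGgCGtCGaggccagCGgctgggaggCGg
1700061G19Rik: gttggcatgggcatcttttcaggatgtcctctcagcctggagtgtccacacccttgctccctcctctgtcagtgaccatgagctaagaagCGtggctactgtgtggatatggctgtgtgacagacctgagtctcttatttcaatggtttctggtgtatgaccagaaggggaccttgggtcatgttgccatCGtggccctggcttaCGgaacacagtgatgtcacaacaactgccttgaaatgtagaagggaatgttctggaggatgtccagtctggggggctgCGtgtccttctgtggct
D630039A03Rik: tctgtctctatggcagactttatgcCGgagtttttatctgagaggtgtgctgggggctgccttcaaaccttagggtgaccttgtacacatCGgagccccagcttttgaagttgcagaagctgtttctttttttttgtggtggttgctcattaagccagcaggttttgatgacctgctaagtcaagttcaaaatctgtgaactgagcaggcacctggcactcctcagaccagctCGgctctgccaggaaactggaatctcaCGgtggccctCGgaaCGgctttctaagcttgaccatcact
0610040F04Rik: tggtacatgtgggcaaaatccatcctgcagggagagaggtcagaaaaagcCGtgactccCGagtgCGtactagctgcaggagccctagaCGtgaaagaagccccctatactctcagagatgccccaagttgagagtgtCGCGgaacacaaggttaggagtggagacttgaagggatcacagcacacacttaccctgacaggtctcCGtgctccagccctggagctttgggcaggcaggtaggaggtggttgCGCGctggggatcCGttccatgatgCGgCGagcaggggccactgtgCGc

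Over the 64 windows the median was 9.5 CG (range 1 to 53), beside 7.0 over all 32851 RefSeq windows. The 64 were 1 per gene, the window nearest the listed start, at most 145427 bp from it. The 32851 were not reduced to 1 per gene. Windows with at least 15 CG made up 31.2% of the RIKEN-named ones and 34.6% of all. The 25 coding genes had a median of 6.0 and the 39 of other types 13.0. The E-box CACGTG, which reads the same on both strands, was present in 7.81% of the RIKEN-named windows and in 7.15% of all. These letter counts are descriptions and were not related to the genotype.

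Among the other non-coding RNAs, 2610035F20Rik had the highest fold change. It lies on chromosome 14 (122470284 to 122475199, minus strand) and had 22, 36 and 67 reads in wild type against 629, 219 and 269 in Yaf2KO. The raw groups did not overlap. Scaled, they did: Yaf2KO 2, at 956 CPM, lay just below wild type 3, at 958. The log2 fold change was 1.21 (SE 0.53, unadjusted p = 0.045, edgeR adjusted p = 0.80). On the scaled log2 scale it lay above the wild-type mean in each Yaf2KO library, by 1.18, 0.72 and 1.88. The 7 listed primed epiblast markers (of 8 looked for), a list that holds its neighbour Zic2, had medians of 0.50, 0.48 and 1.42 in the same libraries. They took 4.18, 4.38 and 4.32% of the listed reads in wild type against 5.81, 4.46 and 8.42% in Yaf2KO, and their part in this result was not tested.

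The lincRNA 1110002J07Rik had 13, 19 and 10 reads in wild type against 152, 58 and 33 in Yaf2KO. Raw groups were apart, with a log2 fold change of 0.34 (SE 0.51). For the bidirectional-promoter lncRNA 1700097N02Rik, with 9, 3 and 21 against 157, 17 and 13, the groups overlapped and the log2 fold change was 0.08 (SE 0.77). The last value changed sign without Yaf2KO 1, to -1.03, and with upper-quartile factors, to -0.090. By annotation 1700097N02Rik overlaps the coding gene Glo1 on the same strand by 4431 bp, with starts 34 bp apart. Whether its reads come from Glo1 was not tested.

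Further non-coding genes had values below 0. The lincRNA 9330185C12Rik had 7, 3 and 14 reads in wild type against 27, 8 and 16 in Yaf2KO (log2 fold change -0.77, SE 0.69). 2210412B16Rik had 10, 7 and 9 against 42, 26 and 4 (-0.73, SE 0.59), and 5930430L01Rik had 4, 6 and 9 against 32, 1 and 15 (-0.66, SE 0.86). Raw groups overlapped in all of these, since at least 1 Yaf2KO library fell within or below the wild-type counts. 9530027J09Rik, with 7, 6 and 15 against 54, 31 and 10, had a log2 fold change of -0.35 (SE 0.56).

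Among coding genes, 2010107G12Rik (RefSeq Slc23a4, of the nucleobase and ascorbate transporter family) had 13, 6 and 8 reads in wild type against 99, 63 and 23 in Yaf2KO. Its raw groups were apart, with a log2 fold change of 0.69 (SE 0.55, edgeR adjusted p = 0.99). 1700029P11Rik, which the deposited annotation describes as a subunit of mitochondrial NADH dehydrogenase, had 10, 6 and 13 against 87, 15 and 1. Its groups overlapped, and its log2 fold change was -0.69 (SE 0.81).

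Also among coding genes, E030030I06Rik had 10, 12 and 20 reads in wild type against 83, 23 and 30 in Yaf2KO, with raw groups apart. Scaled, its groups overlapped, and its log2 fold change was -0.33 (SE 0.57). 4930548H24Rik had 8, 4 and 11 against 72, 18 and 9, and its groups overlapped. The lincRNA A730036I17Rik had 6, 2 and 3 against 132, 16 and 3. Counts of the processed transcript 6030442K20Rik were 1, 2 and 5 against 96, 39 and 3. In both, Yaf2KO 3 lay within the wild-type range, and too few libraries reached the filter's minimum count for a test.

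The other tested genes had log2 fold changes between -0.33 (E030030I06Rik) and 0.20 (1700010I14Rik), apart from G430049J08Rik. That gene, on chromosome 18, had 12, 3 and 8 reads in wild type against 252, 7 and 2 in Yaf2KO. Its fold change of 0.77 on the log2 scale had an SE of 1.11, and 88.7% of its reads came from Yaf2KO 1. With the replicate number as a block, the value was -0.28.

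The tested genes were spread unevenly over the Yaf2KO libraries. On the scale of log2(scaled count + 1) minus the wild-type mean, the median of the 19 was 0.22, -0.21 and 0.11 in Yaf2KO 1, 2 and 3, and 11, 5 and 10 genes lay above 0. Over all 376 tested listed genes the medians were 0.03, 0.13 and 0.05, and 191, 220 and 196 genes lay above 0. 1700029P11Rik took the values 0.35, -1.05 and -3.43, and 5930430L01Rik -0.44, -3.28 and 0.35. Feeder marker medians (3 tested genes) were -1.65, 1.09 and 0.41 in the same libraries. Stem cell marker medians (6 tested genes) were 0.55, 0.11 and -0.51. The part of either list in these values was not tested.

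**Figure D3:**
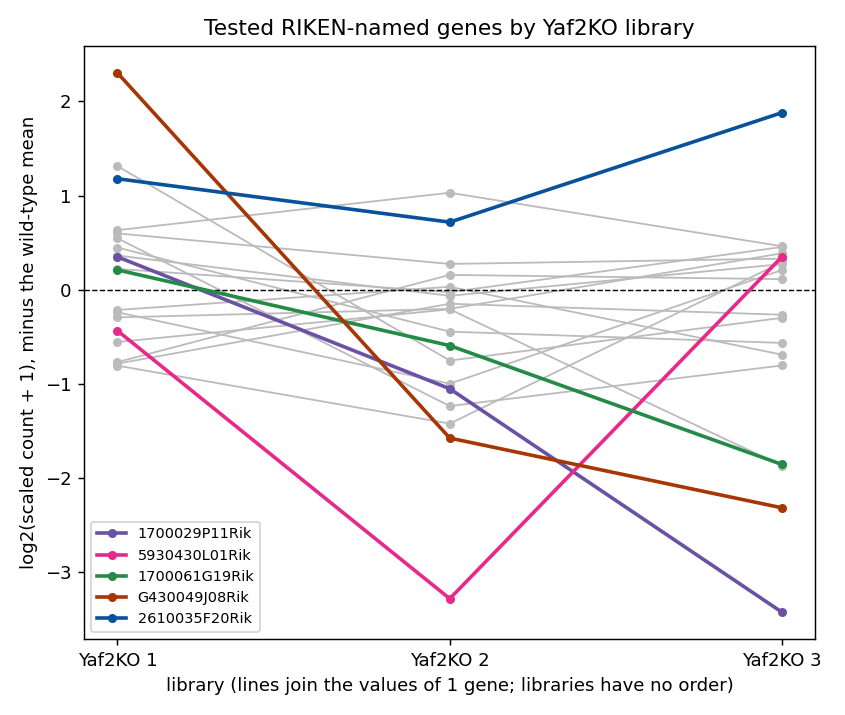
Log2(scaled count + 1) of each of the 19 tested RIKEN-named genes in each Yaf2KO library, minus the wild-type mean; lines join the values of 1 gene and 5 genes are coloured. 2610035F20Rik stays above 0 in all 3 libraries, while G430049J08Rik runs from 2.30 to -2.32.

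Yaf2KO 1 was the library with most raw reads for 84 of the 116 genes (72.4%), the same share as over the 1072 listed genes. Grouped after the values were seen, 15 genes (12.9%) had at least 75% of their reads in 1 library, beside 6.34% of the 1072 and 8.94% of the Gm genes. Of the 15, 13 had fewer than 12 wild-type reads and met the minimum sum only through Yaf2KO, so nothing is read from that contrast. In 14 of the 15 the library was Yaf2KO 1. The exception was 2310007B03Rik (RefSeq Mab21l4), with 6, 2 and 4 reads in wild type against 0, 60 and 8 in Yaf2KO.

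There were 2 RIKEN-named genes with 0 reads in all wild-type libraries. 2210420H20Rik had 20 reads, all in Yaf2KO 1, and 1700125G22Rik had 5, 0 and 7 in Yaf2KO. None was at 0 in all Yaf2KO libraries. Also grouped after the values were seen, 4 genes had deposited protein annotations of retroelement type: G430049J08Rik, 6330410L21Rik, 4930511M06Rik and 6430590A07Rik. Each was highest in Yaf2KO 1, which held 84.2% of their pooled reads, beside 48.4% for all RIKEN-named genes. G430049J08Rik gave most of that pool, with 252 reads in Yaf2KO 1 beside 43, 19 and 12 for the others. With wild-type sums of 2, 2 and 5, those others met the minimum sum only through Yaf2KO, so nothing is read from that contrast.

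Names that begin with a prefix of the RIKEN testis libraries, such as 1700030C10Rik and 4930548H24Rik, were carried by 46 of the 116, a grouping also made after the values were seen. Together they held 1.04, 0.972 and 1.02% of the listed reads in wild type against 0.853, 0.762 and 0.631% in Yaf2KO, and the groups did not overlap. This rested on 1 gene. Without 1700030C10Rik the values were 0.403, 0.357 and 0.504% against 0.495, 0.282 and 0.207%, which overlapped.

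By position, 12 of the 116 genes lay within 10 kb of a listed gene with a regular name, and 4 of these overlapped it. The median gap was 634.6 kb. By annotation 48 genes overlapped a coding gene, 35 of them on the opposite strand. In 21 genes the start lay within 1 kb of the opposite-strand start of the nearest coding gene, of which only Zic2 and Bhlhe40 were listed. No strand setting is stated for the counting, so reads in overlaps cannot be assigned to one gene.

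Of these pairs, 5 had at least 30 reads for both genes, and the RIKEN-named share of the reads of both does not depend on library scaling. 2610035F20Rik starts 236 bp from Zic2, a zinc finger transcription factor of the epiblast and neural ectoderm, and points away from it. Zic2 had 399, 339 and 664 reads in wild type against 4671, 2207 and 2236 in Yaf2KO. For Zic2 the log2 fold change was 0.81 (SE 0.37, edgeR adjusted p = 0.80), beside 1.21 for its neighbour. The share of 2610035F20Rik was 5.23, 9.60 and 9.17% in wild type against 11.9, 9.03 and 10.7% in Yaf2KO, and the groups overlapped.

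0610040F04Rik is antisense and overlaps Bhlhe40, a transcriptional repressor of the basic helix-loop-helix family, by 306 bp. It had 14, 10 and 19 reads in wild type against 150, 20 and 15 in Yaf2KO, while Bhlhe40 had 428, 288 and 625 against 1482, 1313 and 1371. Its share was 3.17% (exact 95% binomial interval 1.74 to 5.26), 3.36% (1.62 to 6.08) and 2.95% (1.79 to 4.57) in wild type. In Yaf2KO it was 9.19% (7.83 to 10.7), 1.50% (0.919 to 2.31) and 1.08% (0.607 to 1.78). The wild-type libraries were alike, whereas Yaf2KO 1 lay above and the other Yaf2KO libraries below them.

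The share of 2010107G12Rik beside Stra8, a retinoic acid-induced gene needed to enter meiosis, was 39.4, 27.3 and 19% in wild type against 30.9, 35.8 and 35.9% in Yaf2KO. E030030I06Rik beside Raet1e, a ligand of the NKG2D receptor of natural killer cells, had 25.6, 26.1 and 46.5% against 18.1, 15.1 and 26.8%. 1700020D05Rik, on the same strand within Snx32, a sorting nexin, had 33.3, 11.1 and 35.3% against 15.5, 28.6 and 0%, the last with an exact 95% upper bound of 11.9% from the 29 Snx32 reads. The groups overlapped in each of these pairs.

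Both the comparison of pairs and its measure were added after the data were seen: the log2 ratio of the 2 counts was computed first, then the share. Two-sided exact permutation tests over the 5 pairs gave p from 0.3 to 0.9 for the log2 ratio and from 0.3 to 1.0 for the share, where 0.1 is the smallest possible. The smallest Benjamini-Hochberg value was 0.5 for both. For 0610040F04Rik the measures differ in sign, at -0.37 in log2 ratio and 0.767 percentage points in share.

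**Figure D4:**
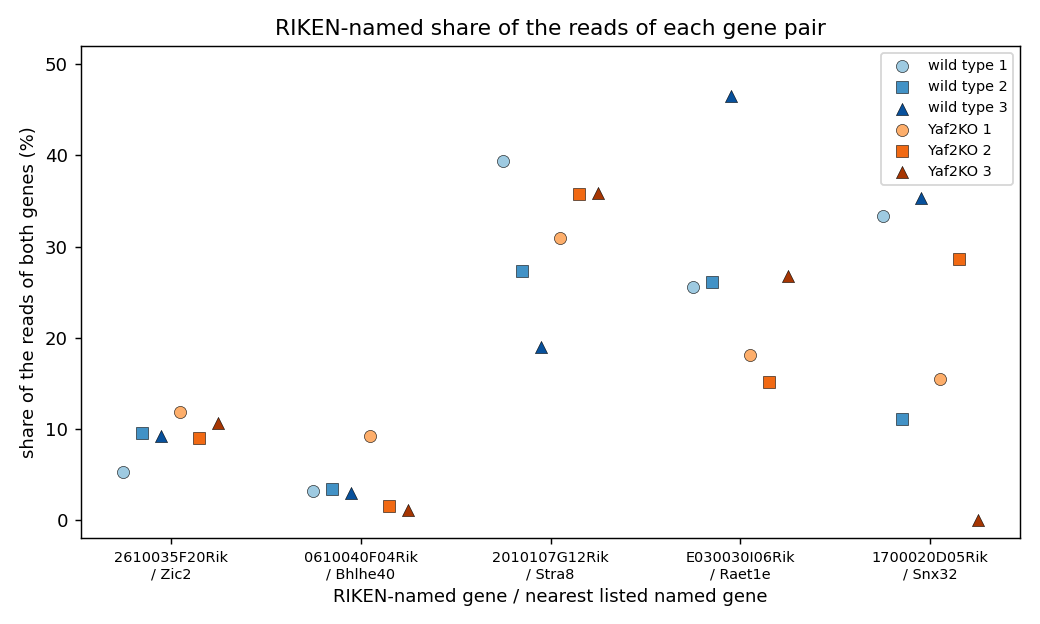
Share of each RIKEN-named gene in the reads of both genes of its pair (percent), by library, blue for wild type and orange for Yaf2KO. The groups overlap in all 5 pairs; for 0610040F04Rik and Bhlhe40 the wild-type points lie between 2.95 and 3.36%, with Yaf2KO 1 at 9.19% and the others at 1.50 and 1.08%.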

How the data were processed

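The deposited values are raw counts, 1 file a library, per the file headers. Libraries were made from poly-T selected RNA with a NEBNext Ultra kit, per the labels' protocols. HTSeq 0.6.0, TopHat2 2.0.12, Cufflinks 2.2.1 and mm10 are named, with no roles, per the submitters' processing notes. The RIKEN-named genes and all lists were chosen with earlier results of these data known. No label states separate cultures, so the p-values reflect only how these samples vary, and that variation may be technical.

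Counts were fitted with edgeR 4.0.16 (R 4.3.3, quasi-likelihood, robust, TMM on the listed genes kept by filterByExpr, Benjamini-Hochberg at 0.05). Fold changes are relative to the typical listed gene. Per-library values used a pseudocount of 1, and log2 ratios of pairs 0.5. The code was tested on simulated data. Gene types came from GENCODE vM21 and promoters from RefSeq. Every pair of libraries differed by more than sampling noise (lowest chi-square over its degrees of freedom 5.01).

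Genes named were those tested (in full the 15 highest sums and 6 highest and lowest fold changes), pairs within 10 kb with at least 30 reads each, genes with separate groups lower in Yaf2KO, and genes at 0 in a genotype; any other is marked in the text as chosen with its values in view. Alternatives were DESeq2 1.42.0 size factors and Wald test, upper-quartile factors, equal depth, no filter, a replicate block, an adjusted p under 0.01, leaving out each library, a sum of at least 30, and windows of 2 and 50 kb. Python 3.11.15 and scipy 1.17.1 gave the exact tests.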

Additional observations from a re-analysis of the deposited data

How the results depend on the processing

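Library totals were not used here, and scaling decides the direction of most values. Equal depth gave 314 of 415 listed genes called (75.7%) in place of 3 of 376, 14 RIKEN-named genes of 25 in place of 0, and a median log2 fold change of 1.91 (all genes 2.12). It made 1700030C10Rik 1.59, 1700061G19Rik 1.91, 0610040F04Rik 2.10, E030030I06Rik 1.69, 1700029P11Rik 1.82, 9530027J09Rik 1.75, 4930548H24Rik 2.09, 1810044D09Rik 1.64, 2210412B16Rik 1.46, 1700008J07Rik 1.90 and 9330185C12Rik 1.08, all negative in the TMM fit. Separate raw groups, 27 genes, became 3 with TMM or DESeq2 size factors.

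Without the low-count filter 15 of 1638 listed genes (0.916%) and 1 of 116 RIKEN-named genes were called, the median was 0.12, and 0610040F04Rik (0.0040), 4930548H24Rik (0.13), 1810044D09Rik (0.014) and 1700008J07Rik (0.20) turned positive. The DESeq2 Wald test called 10 listed genes, upper-quartile factors 2, and an adjusted p under 0.01 left 0; these and DESeq2 size factors called 0 RIKEN-named genes. Upper-quartile factors put 1700097N02Rik at -0.090.

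Whether the replicate numbers pair the libraries was not tested. Same-number correlations were 0.04, 0.18 and 0.17, and those across numbers ranged from -0.35 to 0.25. The replicate block called 0 listed and 0 RIKEN-named genes, with a median of -0.28 and G430049J08Rik at -0.28.

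Leaving out each library gave 0 to 11 listed genes called (0 without any 1 wild-type library, 11 without Yaf2KO 1, 1 without Yaf2KO 2), 0 RIKEN-named genes, medians of -0.34 to 0.10, and 27 to 62 genes with separate raw groups (48 without wild type 3, 42 without Yaf2KO 2 and 62 without Yaf2KO 3, or 41.4, 36.2 and 53.4%, against backgrounds of 51.5, 45.4 and 69.1%). 1700097N02Rik ranged from -1.03 to 0.79, 1110002J07Rik from -0.014 to 0.80, 4930548H24Rik from -0.36 to 0.022 and 1700008J07Rik from -0.11 to 0.016. 2610035F20Rik ranged from 0.76, without Yaf2KO 3, to 1.51, without wild type 3. 1700097N02Rik was -0.0055 without wild type 1, -0.27 without wild type 2 and -1.03 without Yaf2KO 1. The highest 1700008J07Rik value came without wild type 1, and those of 1110002J07Rik below 0 and of 4930548H24Rik above 0 without wild type 3.

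Windows of 2 and 50 kb held 6 and 23 genes in place of 12. The share of the pair's reads in place of the log2 ratio turned 0610040F04Rik from -0.37 to 0.767 percentage points.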
